A study of Mus musculus with 8 samples.

Results

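The cytosolic ribosome is built from a small and a large subunit, and the genes described here encode its protein parts. Every gene symbol that begins with Rps or Rpl and continues with a subunit number (with an optional a, l or x), with p0 to p2, or with a alone was taken, which gave 79 of the 21080 symbols in the tables. Of these, 31 encode proteins of the small subunit and 48 of the large subunit, and the naming rule uses no measured value. The samples were bone marrow-derived macrophages (BMDMs) of C57BL/6 mice. WT samples came from sex-matched LysM-Cre littermates and cKO samples from Nudt21 fl/fl LysM Cre mice, in which Cre driven by the myeloid LysM promoter removes exons of Nudt21. RNA-seq was performed on 2 samples per group, each a pool of BMDMs from 2 mice, at 0 h and at 4 h, after overnight priming with 50 ng/ml IFNγ and 4 h of 50 ng/ml LPS. The titles of the 0 h samples name no agent and the study's methods include untreated cells, but the treatment label names IFNγ/LPS for all 8 samples. The 0 h samples were taken as untreated, and each difference between 4 h and 0 h rests on that reading. Nudt21 encodes the subunit of cleavage factor Im that binds UGUA in pre-mRNA and directs the choice of polyadenylation site, and the comparisons ask whether ribosomal protein mRNAs differed with its loss and with stimulation.

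Ribosomal proteins assemble with ribosomal RNA in the nucleolus, and the finished subunits join on an mRNA to translate it. Most of the proteins are needed in equal numbers, and most of their mRNAs are abundant, short and similar in level. Most begin with a C and a run of pyrimidines, the 5′ terminal oligopyrimidine (TOP) tract, through which mTORC1 and the RNA-binding protein LARP1 control their translation, and LARP1 is also known to stabilise these mRNAs. RNA-seq coverage reports the mRNA, and not how much of it is translated.

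RefSeq start windows (build GRCm38.p6) were found for 59 of the 79 genes. In 13 of them (22.0%) the annotated start was a C followed by at least 4 more pyrimidines, against 3.02% of all 14609 symbols with a window. A run of at least 8 pyrimidines lay from 25 bases before to 25 bases after the start in 54.2% of the ribosomal protein genes and in 22.7% of all. The windows below show the tract in a few genes whose values are given later, as 10 bases before the annotated start and 20 from it, 5′ to 3′ on the gene's strand, with the pyrimidine run that begins at the start in capitals.
Rps27, chr3:90213629-90213658, minus strand: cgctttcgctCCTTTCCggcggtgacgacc
Rps6, chr4:86857348-86857377, minus strand: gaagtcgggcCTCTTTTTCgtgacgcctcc
Rpl28, chr7:4792955-4792984, plus strand: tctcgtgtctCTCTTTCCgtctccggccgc
Rpl38, chr11:114668570-114668599, plus strand: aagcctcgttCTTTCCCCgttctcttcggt
Rps10, chr17:27635225-27635254, minus strand: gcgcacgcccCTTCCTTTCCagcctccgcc
Rplp2, chr7:141447641-141447670, plus strand: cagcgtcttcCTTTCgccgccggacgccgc

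The other genes called between the genotypes at 4 h have annotated starts that do not begin with such a run. Their windows are shown for that reason, with the longest pyrimidine run in each in capitals.
Rps9, chr7:3704031-3704060, plus strand: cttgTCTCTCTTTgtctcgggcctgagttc
Rps25, chr9:44407704-44407733, plus strand: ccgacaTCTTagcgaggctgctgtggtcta
Rpl39, chrX:37085203-37085232, minus strand: gctccgcctctagcgaCTTCTTCTaatcgc
Rpl36a, chrX:134585644-134585673, plus strand: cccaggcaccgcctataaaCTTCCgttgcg

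Searched on both strands of the RefSeq windows of 300 bases (250 before the start and 50 after), the ETS-type motif CCGGAAG was present in 42.4% of the ribosomal protein genes and 15.6% of all symbols. The YY1-type motif AAGATGGC was present in 8.47% and 4.23%, the GC box GGGCGG in 59.3% and 57.3%, and TATAAA in 10.2% and 11.1%. These matches describe the windows and were not tested as binding sites.

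The transcripts carry little 3′UTR. In GENCODE M21 the 79 genes had a median 3′UTR of 89 bases and a median transcript of 805 bases, against 847 and 2735 bases over the 16666 symbols with a coding transcript. No TGTA, the DNA form of the UGUA motif, was found in the 3′UTR of 40 of the 79 genes (50.6%), against 18.8% of all symbols, while per kilobase of 3′UTR the motif was as frequent in both (5.65 and 5.56). Of the 5 genes called between genotypes at 4 h, Rps25 had 1 site and Rps27, Rpl36a, Rpl39 and Rps9 had none in the transcript used. The sites nearest the transcript end are given for Rps25, for Rps24 (10 sites in a 3′UTR of 1173 bases) and for Rps27l, with TGTA in capitals (build GRCm38, plus strand).
Rps25, chr9:44410147-44410170: ttcaatcagcTGTAcatttggaaa
Rps24, chr14:24496916-24496939: taatcagactTGTAaatgcaataa
Rps27l, chr9:66949420-66949443: accaagacaaTGTAattattgttt

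The deposited values are mean coverage per base, so levels of different genes can be compared per length. Summed coverage was 14950347 to 17954882 units per sample, and each sample was scaled to the same sum before comparison ("scaled coverage"). The scaled coverage of Nudt21 at 0 h was 751 and 667 in WT but 157 and 160 in cKO. At 4 h it was 579 and 634 in WT but 135 and 106 in cKO. Of 8 macrophage markers, none was at 0 in any group, and their summed scaled coverage was 122436 to 134355 at 0 h and 66984 to 70599 at 4 h. Neutrophil markers summed to 18542 to 32168 with S100a9 leading, T cell markers to at most 208 with Cd4 leading and Cd3e, Cd8a and Trac at 0 in both 0 h groups, and B cell, erythroid and dendritic cell markers to at most 4.32, 12.9 and 74.1. Fibroblast and stromal markers summed to 16.1 to 194, and cycling markers to 1058 to 1183 at 0 h, 2202 and 2901 in WT at 4 h and 3453 and 3580 in cKO at 4 h. Their part in the results below was not tested. The 2 samples of a group are separate pools of mice, and p-values rest on the spread between 2 such pools. Whether the same pools were used at both times is not stated in the sources used here.

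Averaged over the 8 samples, the median of the 79 genes was 10360 units of deposited coverage, against 30.2 over all symbols. The 5 highest were Rpl10 (31358), which helps to complete the peptidyl transferase region of the large subunit, the stalk proteins Rplp1 (25149) and Rplp0 (22162), Rps24 (20530) and Rpl19 (19562). Of the 79, 77 lay between Rpl29 at 1180 and Rpl10, a 26.6-fold range, and 62 of these were between 5000 and 20000. The small subunit had a median of 11261 over 31 genes and the large subunit 9943 over 46. The remaining genes are tissue-restricted paralogs at far lower levels: Rpl3l, a paralog of Rpl3 known from heart and skeletal muscle, averaged 1.98, and Rpl39l, a paralog of Rpl39 known from testis, averaged 12.6. Rps27l, the paralog of Rps27, was at 2938, while no row was present for Rpl10l. Rpl3l and Rpl39l are left out where 77 genes are named.

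Together the 79 genes took 6.19% and 5.29% of summed coverage in WT at 0 h and 5.25% and 5.58% in cKO at 0 h. At 4 h they took 4.45% and 4.43% in WT and 4.16% and 4.27% in cKO. All 4 samples at 4 h were below all 4 at 0 h, and at 4 h both cKO samples were below both WT samples. WT replicate 1 at 0 h stood above the other samples.

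**Figure D1:**
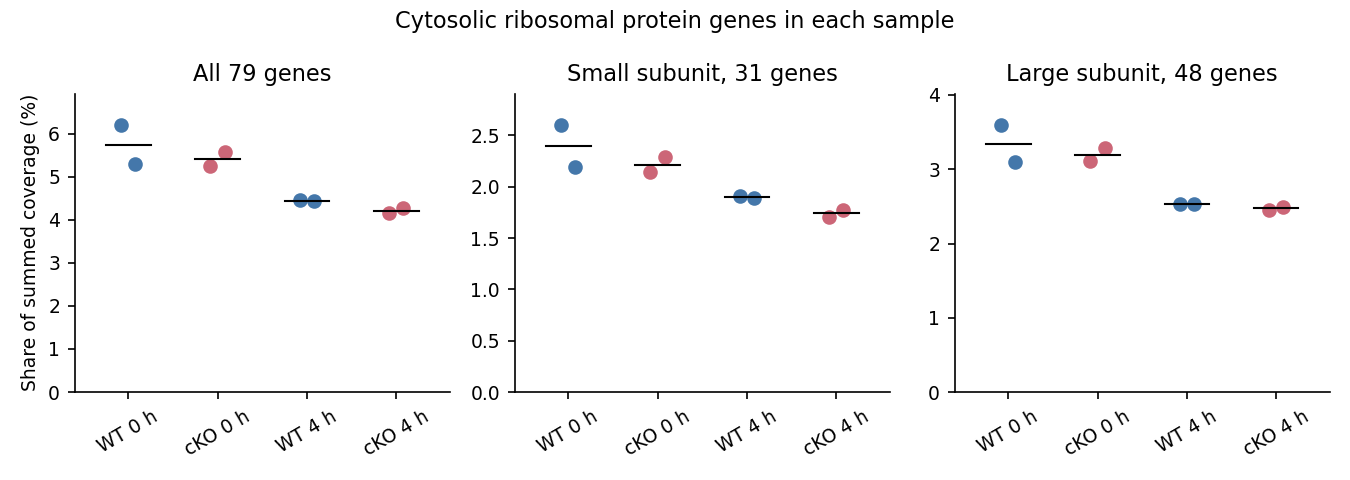
Share of each sample's summed coverage (%, y axis) held by all 79 genes, the 31 small subunit genes and the 48 large subunit genes, by group (x axis); points are samples and lines are group means. The mean share was 5.74% at 0 h and 4.44% at 4 h in WT and 5.41% and 4.21% in cKO, and the WT samples at 0 h are the most spread.

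In WT the mean share was 5.74% ± 0.633 (SD, n = 2) at 0 h and 4.44% ± 0.0147 at 4 h, and in cKO 5.41% ± 0.235 and 4.21% ± 0.0767. The difference between times was -1.30 percentage points in WT and -1.20 in cKO. Between genotypes it was -0.227 at 4 h and -0.327 at 0 h. With 2 samples against 2, the exact two-sided permutation test cannot go below 0.333. It gave 0.333 for both times comparisons and for the genotypes at 4 h, and 0.667 for the genotypes at 0 h. The 0 h difference rests on WT replicate 1: without it the cKO mean was 0.120 percentage points higher. The small subunit share at 4 h was 1.90% in WT and 1.74% in cKO, and the large subunit share 2.54% and 2.47%. The 78 mitochondrial ribosomal protein genes, which serve the separate ribosome of the mitochondrion, took 0.284% at 0 h and 0.176% at 4 h in WT and 0.285% and 0.180% in cKO. The 31 proteasome genes took 0.430% and 0.509% in WT and 0.466% and 0.541% in cKO. Shares compare a group of mRNAs with the rest of the sample, and in these bulk samples fewer mRNAs per cell and fewer cells of a type cannot be told apart.

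For single genes, the genotypes were compared with limma on log2(scaled coverage + 0.1). Genes with p under 0.05 and a change of more than 1.5-fold were called. At 4 h, 1 of the 79 genes was called higher in cKO and 4 lower, or 1.27% and 5.06%, where 13.0% and 6.78% of all 14950 genes tested were called higher and lower. No ribosomal protein gene had a Benjamini-Hochberg adjusted p under 0.05, as 1.32% of all genes did, while 10 of the 79 (12.7%; 2 higher, 8 lower) and 25.5% of all genes had an unadjusted p under 0.05. Added to the same fit, a variance trend with intensity gave 15 of the 79 and 16.9% of all genes an adjusted p under 0.05. Over the 79, the log2 fold change had a median of -0.06, against 0.10 for all genes, and 22 of the 79 were above that median. On the deposited scale without scaling the median of the 79 was 0.15, so the direction of the group as a whole at 4 h depended on the scaling.

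**Figure D2:**
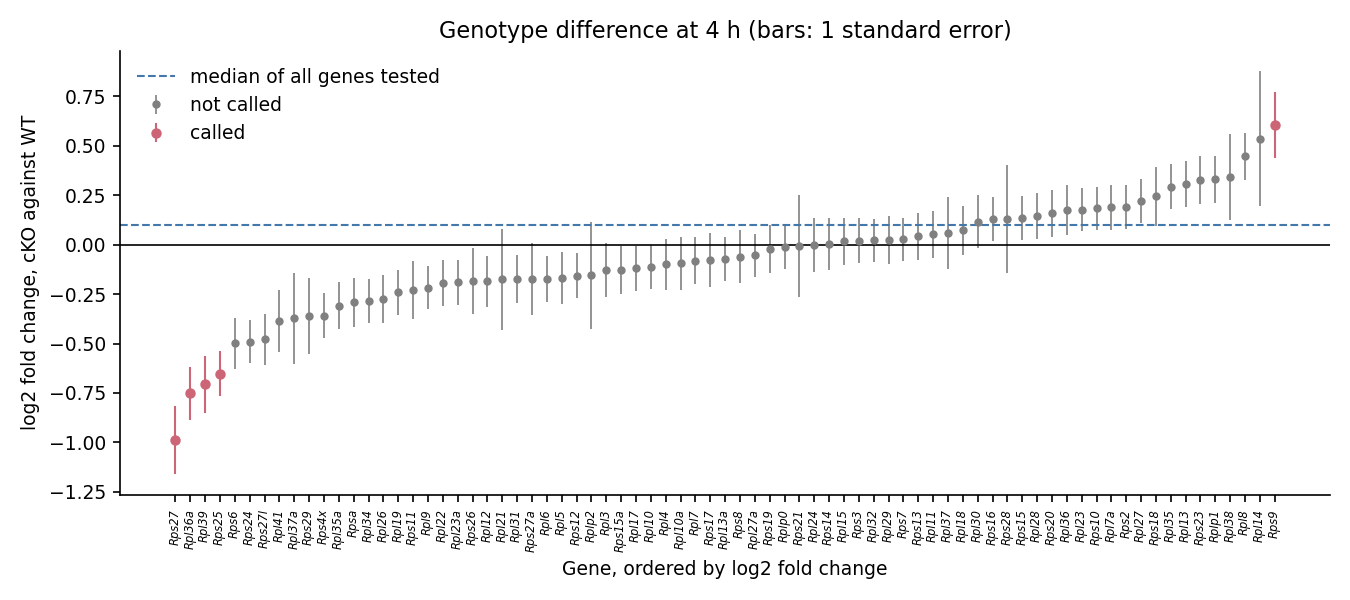
Genotype difference at 4 h (y axis, log2 fold change, cKO over WT) for 75 ribosomal protein genes ordered by value (x axis); bars are 1 standard error, red points were called and the dashed line is the median of all genes tested. Rps27, Rpl36a, Rpl39 and Rps25 form the low end from -0.99 to -0.65, and Rps9 the high end at 0.61.

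Rps27, a zinc-binding small subunit protein also called metallopanstimulin, had scaled coverage of 20331 and 16666 in the WT and 8703 and 9902 in the cKO group at 4 h. The cKO samples were about 2-fold lower (log2 fold change -0.99, SE 0.17, limma adjusted p = 0.108). At 0 h the groups overlapped, with 21952 and 14520 in the WT and 15638 and 17722 in the cKO samples. Rps27rt, a retrotransposed copy with a symbol outside the rule, was at 342 and 179 in the WT and 108 and 125 in the cKO group at 4 h, and reads of near-identical copies cannot be assigned to one of them with certainty.

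Rpl36a, a large subunit protein encoded on the X chromosome, was at 5878 and 5221 in the WT and 3177 and 3403 in the cKO group at 4 h. The log2 fold change was -0.75 (SE 0.13, limma adjusted p = 0.108). Its autosomal intronless relative Rpl36al was at 479 and 512 in the WT and 372 and 448 in the cKO samples. Rpl39, the small basic protein that lines the exit tunnel for the nascent peptide, is also X-linked and was at 4910 and 4824 in the WT and 2749 and 3239 in the cKO samples (log2 fold change -0.71, SE 0.14, limma adjusted p = 0.120). In both genes the 2 cKO samples at 4 h were the lowest of the 8 samples, as they also were in Rps27, Rps25, Rps24, Rps6 and Rps4x.

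Rps25, which has a known part in initiation at internal ribosome entry sites, was at 14785 and 15109 in the WT and 9224 and 9812 in the cKO group at 4 h. The log2 fold change was -0.65 (SE 0.11, limma adjusted p = 0.108), and at 0 h both cKO samples (11012 and 11833) were already below both WT samples (16163 and 12412). Rps9, a primary binder of 18S ribosomal RNA, was the gene called higher. It was at 8037 and 7902 in the WT and 10883 and 13508 in the cKO group at 4 h (log2 fold change 0.61, SE 0.17, limma adjusted p = 0.164). At 0 h it overlapped between genotypes, with 13943 and 12507 in the WT and 11586 and 14421 in the cKO samples.

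The directions of these 5 genes were the same under each scaling, pseudocount and filter tried and with each sample left out. The calls changed with the scaling. On the deposited scale Rpl36a, Rpl39 and Rps25 dropped under 1.5-fold (log2 fold changes -0.54, -0.49 and -0.44), and after median-centring Rps9 was not called (0.48). Without cKO replicate 3, the log2 fold changes were -0.89 for Rps27, -0.70 for Rpl36a, -0.59 for Rpl39, -0.61 for Rps25 and 0.76 for Rps9. Without cKO replicate 4, Rpl36a was at -0.80, Rps25 at -0.70 and Rps9 at 0.45. Rpl39 and Rps9 were at -0.69 and 0.62 without WT replicate 1 and at -0.72 and 0.59 without WT replicate 2. With 1 sample left in a group, a gene's own spread comes from the other group alone, so calls from these fits are not given for these genes. With only genes of a mean coverage of 10 or more, Rps27, Rpl36a, Rpl39 and Rps25 had limma adjusted p of 0.0344, 0.0376, 0.0443 and 0.0392, and 14.8% of all genes then had one under 0.05.

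**Figure D3:**
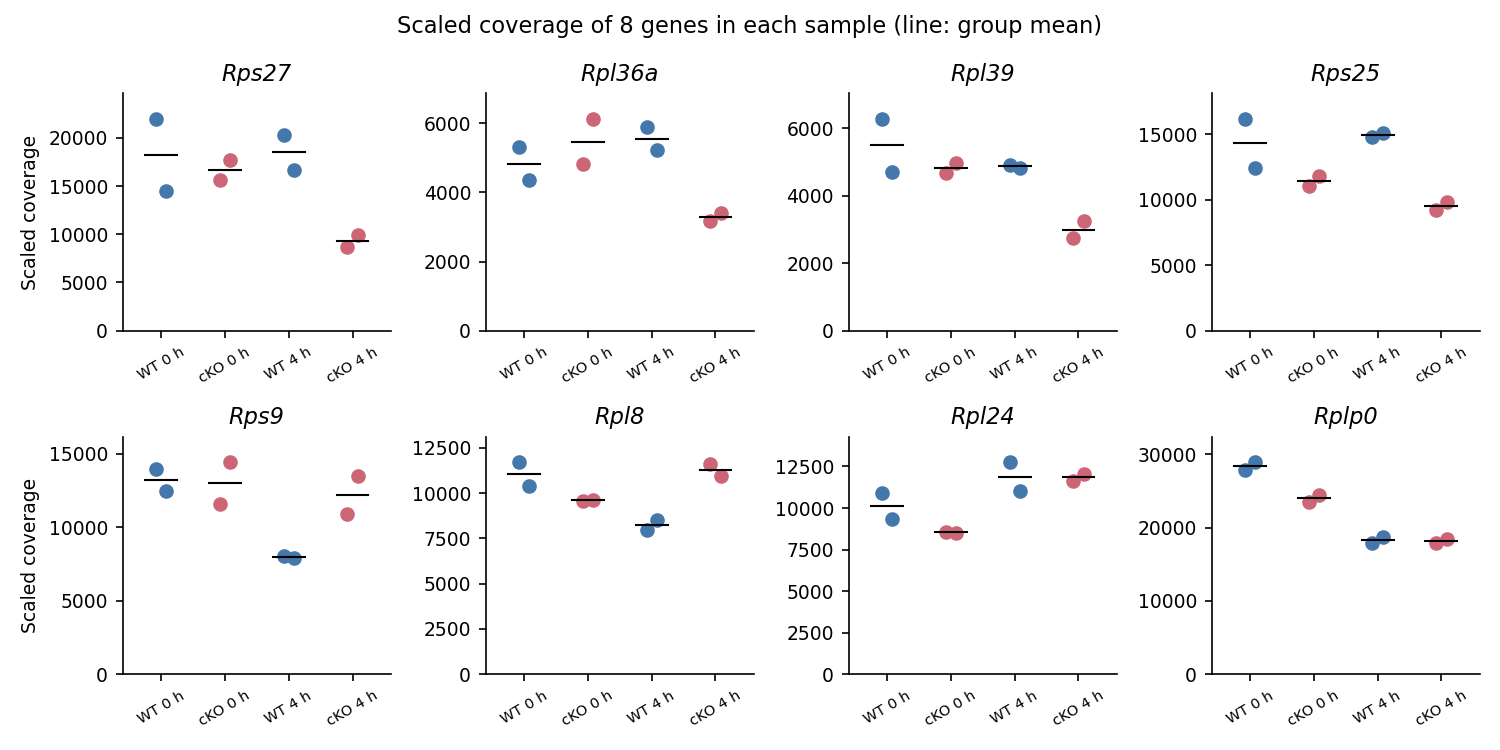
Scaled coverage (y axis from 0) of 8 ribosomal protein genes in each group (x axis); blue points are WT samples, red points cKO samples and lines group means. At 4 h the cKO samples lie below the WT samples for Rps27, Rpl36a, Rpl39 and Rps25 and above them for Rps9 and Rpl8, while Rplp0 overlaps.

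A further 5 genes had an unadjusted p under 0.05 at 4 h without reaching 1.5-fold. Rps6, the substrate of S6 kinase downstream of mTORC1, was at 10394 and 10644 in the WT and 7013 and 7915 in the cKO samples (log2 fold change -0.50, limma adjusted p = 0.156). Rps24, whose alternative 3′ exons give several isoforms, was at 24060 and 23803 in the WT and 17292 and 16774 in the cKO samples (-0.49, adjusted p = 0.132). Rps27l, a p53-induced paralog, was at 3867 and 3648 in the WT and 2846 and 2556 in the cKO samples (-0.48, adjusted p = 0.162). Rps4x, on the X chromosome, was at 15670 and 16754 in the WT and 12732 and 12550 in the cKO samples. Rpl8 was at 7989 and 8526 in the WT and 11587 and 10933 in the cKO samples (0.45, adjusted p = 0.159). None of the 5 overlapped between genotypes.

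Both cKO samples were above both WT samples at 4 h in 21 of the 79 genes and below them in 32, or 26.6% and 40.5%, where 36.3% and 24.2% of all genes tested did so. The counts at 0 h were 3 and 25 (3.80% and 31.6%), against 26.9% and 30.6% of all genes.

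The stalk of the large subunit, which recruits elongation factors, did not differ in one direction at 4 h. Its base Rplp0 was at 17877 and 18673 in the WT and 17840 and 18385 in the cKO samples (log2 fold change -0.01). Rplp1 was at 19332 and 19982 in the WT and 23776 and 25692 in the cKO samples (0.33, SE 0.12, limma adjusted p = 0.221), and its partner Rplp2 at 9921 and 6454 in the WT and 7256 and 7119 in the cKO samples (-0.15, SE 0.27). Of the 3 stalk genes, none was called between genotypes.

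Further genes were named for a known role or a high level, and those given next were not called at 4 h. Rpsa, also the laminin receptor, had a log2 fold change of -0.29 (SE 0.12, limma adjusted p = 0.269). Rpl13a, a part of the GAIT complex that represses inflammatory mRNAs in IFNγ-treated myeloid cells, was at -0.07 (SE 0.11). Rpl5 and Rpl11, which carry 5S ribosomal RNA and restrain Mdm2, were at -0.17 (SE 0.13) and 0.05 (SE 0.12). Rps27a, made as a fusion with ubiquitin, was at -0.17 (SE 0.18), Rps19, mutated in Diamond-Blackfan anemia, at -0.02 (SE 0.12), and Rpl22 at -0.19 (SE 0.12). Rps3, also a partner of NF-κB p65, was at 0.02 (SE 0.11), Rpl10 at -0.11 (SE 0.11) and Rpl19 at -0.24 (SE 0.11).

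At 0 h, none of the 79 genes was called higher or lower in cKO, where 6.77% and 7.43% of all 16251 genes were. None had an adjusted p under 0.05, as 1.14% of all genes did, and 3 (3.80%, all lower) had an unadjusted p under 0.05, as 23.1% of all genes did. With a variance trend, 1 had an adjusted p under 0.05, against 12.0% of all genes. Over the 79 genes the median was -0.08 on the log2 scale (all genes -0.02), and 58 of the 79 were below 0. Without WT replicate 1 at 0 h the median was 0.02, so this direction rested on that sample. Rpsa was at 18963 and 19246 in the WT and 15658 and 15259 in the cKO samples. Rpl32 was at 17603 and 16457 in the WT and 13777 and 13055 in the cKO samples (log2 fold change -0.34). Rps21 (-0.52, SE 0.32), Rps28 (-0.39, SE 0.20) and Rpl10a (-0.38, SE 0.13) lay at the low end beside the scarcely covered Rpl39l (-1.68, SE 1.84). At the high end were Rps18 (0.31, SE 0.11), Rpl10 (0.23, SE 0.12), Rpl36a (0.18, SE 0.20) and Rpl14 (0.14, SE 0.28) beside Rpl3l (1.27, SE 1.18). None of these was called. WT replicates 1 and 2 moved the low values. Rps21 was at -0.16 and Rps28 at -0.18 without replicate 1, and at -0.89 and -0.61 without replicate 2, while Rpl10a was at -0.26 and -0.51.

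WT replicate 1 at 0 h exceeded WT replicate 2 in 72 of 77 genes, with a median log2 difference of 0.26. Over 8377 other genes averaging 100 or more in coverage the same difference had a median of -0.02, and over the 552 of these with transcripts under 1000 bases one of 0.31. In the other groups the 2 samples differed by medians of -0.01 (WT at 4 h), -0.08 (cKO at 0 h) and -0.03 (cKO at 4 h). The differences between samples of 1 group varied with the length of the coding sequence. Across the 77 genes Pearson's r with log2 coding length was -0.56 in WT at 0 h, -0.55 in WT at 4 h, 0.46 in cKO at 4 h and 0.17 in cKO at 0 h. Across the 8377 other genes it was -0.36, -0.15, 0.15 and 0.01. The points share their libraries, and genes are not independent replicates. For Rpl14 in WT at 4 h the samples were at 2432 and 4204, and the genotype difference was 0.54 with an SE of 0.34 (0.14 without WT replicate 1 and 0.93 without replicate 2).

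The difference of the genotype difference between 4 h and 0 h was tested as an interaction over the 8 samples. None of the 79 genes had an adjusted p under 0.05, as 2.51% of all 16284 genes did, while 8 (10.1%) had an unadjusted p under 0.05, as 20.2% of all genes did. A variance trend gave 3 (Rpl8, Rpl36a and Rps24) with an adjusted p under 0.05, against 6.27% of all genes. The median was -0.000847 for the 79 and 0.11 for all genes. The lowest values beside Rpl3l were those of Rpl36a (-0.93, SE 0.25, limma adjusted p = 0.130) and Rps27 (-0.89, SE 0.34, adjusted p = 0.239; -0.59 without WT replicate 2 at 0 h). The highest beside Rpl39l were those of Rpl8 (0.65, SE 0.15, limma adjusted p = 0.103) and Rps9 (0.64, SE 0.24, adjusted p = 0.236).

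The genotype differences varied with GC content of the transcript, in opposite directions at the 2 times. Across the 77 genes r was 0.35 at 4 h, -0.29 at 0 h and 0.44 for the interaction. Across other genes averaging 100 or more in coverage it was 0.19, -0.16 and 0.32, and across those of them with transcripts under 1000 bases 0.29, -0.05 and 0.35. The 26 genes of lowest GC (41.3% to 49.3%) had a median log2 fold change of -0.17 at 4 h, with 7 above 0, and the 26 of highest GC (53.1% to 60.8%) one of 0.05, with 15 above 0. Rpl36a (46.6%) and Rpl39 (48.7%) are in the lowest group, Rps27 (50.7%) and Rps25 (50.9%) in the middle, and Rpl8 (58.0%) and Rps9 (54.6%) in the highest. The part of GC content in the genotype differences was not tested. By UGUA content, the 40 genes without a site had a median of -0.01 at 4 h and the 37 with a site -0.15, while at 0 h the medians were -0.10 and -0.06. GC and UGUA content were each taken from 1 transcript per symbol, and other isoforms were not used. For Rps20, at the low end of GC (41.3%), that transcript had 3706 bases and 23 sites in a 3′UTR of 3167 bases.

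**Figure D4:**
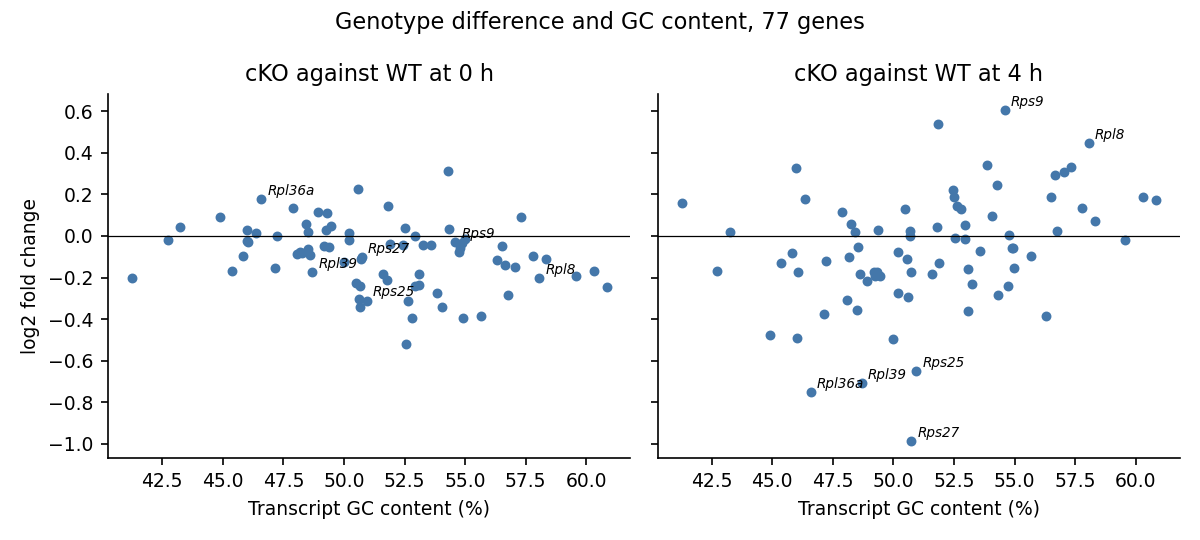
log2 fold change of cKO against WT (y axis) at 0 h and 4 h against the GC content of the transcript (%, x axis) for 77 ribosomal protein genes, each point 1 gene. Pearson's r was -0.29 at 0 h and 0.35 at 4 h.

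Stimulation was compared within each genotype. In WT, 12 of the 79 genes were called lower at 4 h and none higher, where 53.5% of all 16002 genes were called lower and 12.2% higher. In cKO, 11 were called lower and none higher, where the shares of all 16223 genes were 53.9% and 13.3%. An adjusted p under 0.05 was reached by 11 genes in WT, all lower, and 37 in cKO, 36 lower (62.5% and 71.8% of all genes). In WT this count fell to 0 without replicate 1 or 2 at 0 h or replicate 1 at 4 h and to 2 without replicate 2 at 4 h. Of all genes, 19.3% and 20.7% had an adjusted p under 0.05 without replicate 1 or 2 at 0 h, and 47.8% and 56.3% without replicate 1 or 2 at 4 h. With 1 sample left in a group, these fits take each gene's own spread from the other group alone. The median log2 fold change of the 79 in WT then ranged from -0.49 to -0.27. In cKO the count of 37 became 16 and 20 without replicate 4 at 0 h and replicate 3 at 4 h, and 23 without replicate 4 at 4 h, where 55.3%, 62.3% and 60.8% of all genes passed at that level. The median log2 fold change was -0.39 in WT and -0.37 in cKO, against -1.22 and -1.09 for all genes, and every one of the 79 in WT and 78 in cKO lay above the median of all genes. So the direction depends on the reference: with samples centred on the median gene, 71 genes in WT and 69 in cKO were called higher, with medians of 1.01 and 0.87, and after quantile normalization 48 and 46 were called lower. Of all genes, 33.5% in WT and 32.7% in cKO were called higher after median-centring, and 28.8% and 30.8% lower after quantile normalization. Most ribosomal protein genes were thus below 0 relative to summed coverage and above 0 relative to the median gene.

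**Figure D5:**
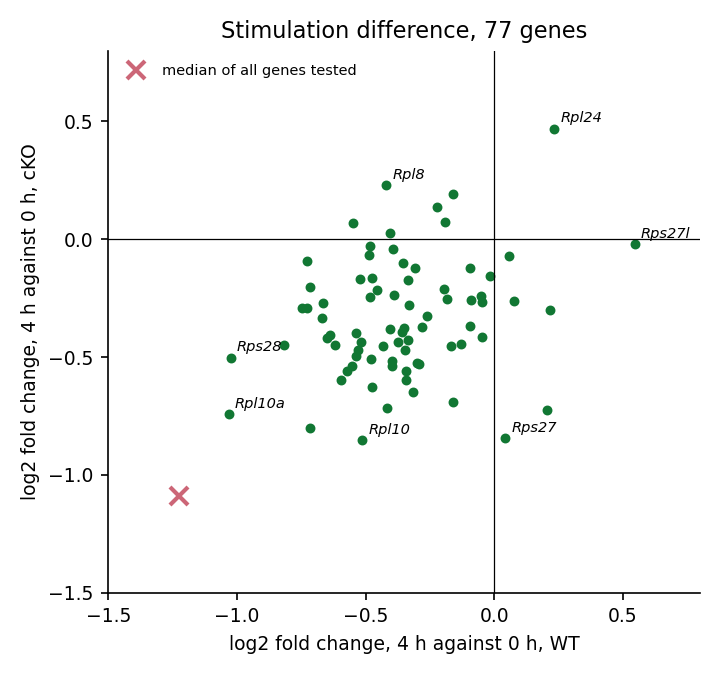
log2 fold change at 4 h against 0 h in WT (x axis) and cKO (y axis) for 77 ribosomal protein genes, scaled to equal summed coverage; the cross is the median of all genes tested. Most genes lie below 0 on both axes, and all lie above and to the right of the cross.

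The 2 comparisons share no samples. Of the 77 genes, 64 were negative in both genotypes, 1 (Rpl24) was positive in both and 12 differed in sign, with r = 0.26 across genes. The following values are on the scale of equal summed coverage, and those of Rpl10a, Rps28, Rpl10 and Rps27 change sign after median-centring. Rpl10a, a component of the L1 stalk, went from 10599 and 8902 to 4424 and 5102 in WT (log2 fold change -1.03, SE 0.18, limma adjusted p = 0.0201) and from 7353 and 7537 to 4461 and 4434 in cKO (-0.74). Rps28 went from 5085 and 3760 to 2604 and 1774 in WT (-1.02, SE 0.31, limma adjusted p = 0.0627). Rpl10 went from 40434 and 42778 to 22834 and 23241 in cKO (-0.85, SE 0.07, limma adjusted p = 0.00417), and Rps27 fell there by 0.84 (SE 0.12, adjusted p = 0.0131). Other genes called lower in WT included Rpl32, Rpl28, Rps9, Rpl3, Rps15, Rplp0, Rps19 and Rpl12, and those in cKO were Rpl3, Rpl10a, Rpl36a, Rps4x, Rpl39, Rpl9, Rpl5, Rpl12 and Rpl26.

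Rpl24, which lies at the subunit interface, went against the group. It was at 10890 and 9349 at 0 h and 12744 and 11033 at 4 h in WT (0.23, SE 0.18, limma adjusted p = 0.328), and at 8583 and 8516 and then 11630 and 12049 in cKO (0.47, SE 0.07, limma adjusted p = 0.0121). After quantile normalization its values were -0.06 in WT and 0.15 in cKO. Rps27l was at 3168 and 2086 at 0 h and 3867 and 3648 at 4 h in WT (0.55, SE 0.27, limma adjusted p = 0.173). Its log2 fold change was 0.85 without WT replicate 1 at 0 h and 0.25 without replicate 2. Rpl8 in cKO went from 9570 and 9622 to 11587 and 10933 (0.23, SE 0.07, limma adjusted p = 0.0699).

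Genes of the same pathway were counted from fixed lists, and each count is to be read beside the shares of all genes: 13.0% called higher and 6.78% lower in cKO at 4 h, 6.77% and 7.43% at 0 h, and on stimulation 12.2% higher and 53.5% lower in WT and 13.3% and 53.9% in cKO. Of the 8 ribosomal protein genes outside the naming rule (among them Rps3a1, Fau, Rack1, Rpl22l1, Rpl36al, Rpl7l1 and Rps27rt), none was called between genotypes. On stimulation 1 was called lower in WT and 1 in cKO (Rps27rt). Of 14 other TOP mRNAs, 1 was called higher and 1 lower (Hnrnpa1, -0.68) in cKO at 4 h and none at 0 h, with 7 lower in WT and 7 in cKO on stimulation, and 2 and 1 higher. Among the elongation factors, Eef1a1 was at 83936 and 86833 in the WT and 79340 and 77612 in the cKO group at 4 h. Of 7 noncoding hosts of small nucleolar RNAs, which are TOP transcripts too, none was called between genotypes, and on stimulation 2 were higher in each genotype (Zfas1 and Snhg8), with 1 lower in WT and 3 in cKO.

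Of the 14 genes of mTORC1 and TOP translation control, 1 was called higher in cKO at 4 h and none at 0 h, with a median log2 fold change of 0.32 at 4 h and all 14 above 0. Of all genes at 4 h, 56.8% were above 0. At 0 h the median of the 14 was 0.09, with 8 above 0. On stimulation 11 were called lower in WT and 12 in cKO, while Larp1, the TOP-binding repressor, was called higher in both (1.38 and 1.71). Of 40 genes of ribosomal RNA synthesis and ribosome assembly, 3 were called higher in cKO at 4 h and none lower, with none at 0 h. On stimulation 5 were higher and 23 lower in WT, and 5 and 24 in cKO. Of 14 genes of ribosome rescue and quality control, 2 were called higher in cKO at 4 h, and on stimulation 1 was higher in each genotype, with 10 lower in WT and 8 in cKO. Of the 78 mitochondrial ribosomal protein genes, 5 were called higher and 2 lower in cKO at 4 h and 1 each way at 0 h, and on stimulation 54 were called lower in WT and 53 lower and 2 higher in cKO. Of the 31 proteasome genes, none was called at 4 h and 1 was higher in cKO at 0 h, and on stimulation 8 were higher in WT and 7 higher and 2 lower in cKO. The counts and medians of these lists, the downward calls on stimulation among them, hold for equal summed coverage and were not taken under median-centring.

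Over the 8 samples, the genes outside the group most like its mean log2 profile were Rsrp1 (r = 0.99), E2f4 (0.98), Npm3 (0.98), Fam98c (0.98) and Gas5 (0.98), of 8551 genes averaging 100 or more in coverage. The median r of all 8551 genes was 0.81. It was 0.87 for mitochondrial ribosomal proteins, 0.85 for mTORC1 and TOP translation control and 0.84 for other TOP mRNAs. Ribosome rescue was at 0.83 and ribosome assembly at 0.80. Below these were the 8 ribosomal proteins outside the rule (0.71), 6 small nucleolar RNA hosts (0.51) and the proteasome genes (-0.41).

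Processed pseudogenes limit single values. GENCODE names 291 pseudogenes after 59 of the 79 genes, up to 24 for Rpl31, and none of their symbols has a row in the tables, so reads shared with them may have been counted or lost.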

How the data were processed

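RNA-seq libraries of 8 BMDM samples (4 groups of 2) were analysed. The authors aligned the reads with HISAT2 2.2.1 to mm10, quantified RefSeq genes with StringTie 2.1.7 and deposited 1 coverage signal for each gene in each sample, as mean coverage per base without scaling (the unit was read from the values). The tables also hold the authors' fold changes and p-values, which were not used. Every sample's column was used.

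Coverage was scaled to equal summed coverage, and log2(scaled coverage + 0.1) was fitted, for genes averaging 0.5 or more in the compared samples, with limma 3.58.1 (R 4.3.3), with Benjamini-Hochberg adjustment over all genes tested. Shares of summed coverage were compared with an exact permutation test (scipy 1.17.1). The study's methods state a minimum number of reads per sample, but the deposited values do not give the reads behind each one, so no counting interval is given. The fit was tested on simulated data before use.

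Lists covered ribosomal proteins outside the rule, the stalk, paralogs, other TOP mRNAs, small nucleolar RNA hosts, mTORC1 and TOP control, ribosome assembly, rescue, mitochondrial ribosome, proteasome and cell type markers. Genes named singly were the called genes, the ends of each comparison, the most covered genes and genes of known role. The members and lists were chosen with earlier results of these data known. GENCODE M21 transcripts (1 per symbol, 16666 of 21080 symbols) gave lengths and GC. Alternatives covered the scaling, pseudocount, filter, variance estimate, samples in the fit, a replicate block and each sample left out. Values of a few genes are not reported here, though they stay in the counts.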

Additional observations from a re-analysis of the deposited data

Results flagged for a closer look

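In 8 of the ribosomal protein genes reported here both cKO samples lay on one side of both WT samples at 0 h and on the other side at 4 h, or 10.7% of 75, where 11.1% of all 14210 genes tested at both times did so. The genotype difference was tested as an interaction with limma, and none of the 8 passed with adjustment over all genes, although with a variance trend Rpl8 had an adjusted p under 0.05. Rpl10 was higher in cKO at 0 h and lower at 4 h, with a difference of genotype effects of -0.34 on the log2 scale (adjusted p = 0.304). The other 7 were lower in cKO at 0 h and higher at 4 h. The differences were 0.65 for Rpl8 (adjusted p = 0.103), 0.62 for Rpl38 (0.361), 0.46 for Rpl28 (0.294) and 0.45 for Rpl13 (0.228). They were 0.36 for Rps20 (0.299), 0.35 for Rps10 (0.273) and 0.24 for Rps2 (0.368). Groups of 2 samples are too small for a check of single outlying samples.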

How the results depend on the processing

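For the genotypes at 4 h, deposited coverage without scaling gave 2 genes called higher and 1 lower with a median of 0.15, and median-centring gave 0 and 7 with a median of -0.19. The shares of all genes called under these 2 scalings were not counted, so the counts are no result about the ribosomal protein genes. Genes with an adjusted p under 0.05 numbered 4 at a mean coverage of at least 10, 1 with all 8 samples in 1 fit and 15 with an intensity trend. Of all genes, 14.8% passed at that mean coverage and 16.9% with the trend, and the share with all 8 samples was not counted. At 0 h the trend gave 1, and for the interaction it gave 3, against 12.0% and 6.27% of all genes. Median-centring moved the interaction median to -0.18.

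For stimulation in WT, median-centring gave 71 called higher and 0 lower, 59 with an adjusted p under 0.05 and a median of 1.01, and quantile normalization 1 higher, 48 lower, 38 with an adjusted p under 0.05 and a median of -0.65. Genes with an adjusted p under 0.05 numbered 19 on deposited coverage, 20 at a mean of at least 10, 37 with all samples in 1 fit and 36 with a trend. In cKO, median-centring gave 69 higher, 0 lower, 73 with an adjusted p under 0.05 and a median of 0.87, quantile normalization 46 lower, 59 and -0.68, and the trend 56. For the adjusted p-values of these alternatives, the shares of all genes passing were not counted. In the main fit those shares were 62.5% in WT and 71.8% in cKO. The counts are therefore no result about the ribosomal protein genes. Median-centring reversed Rpl10a (0.37) and Rps28 (0.38) in WT and Rpl10 (0.39) and Rps27 (0.40) in cKO. These shifts follow from the fall of the median gene under equal summed coverage. The share without the 20 highest other genes in its denominator differed by -0.337 percentage points between genotypes at 4 h and -1.59 between times in cKO. What made the settings differ was not tested.

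The numbers 1 to 4 recur at both times and the sources used here do not say that they pair samples. Deviations of same-numbered samples correlated at 0.02 in both genotypes over 16284 genes, at 0.16 in WT and 0.10 in cKO over genes averaging 100 or more in coverage, and at 0.20 and 0.13 over the 77 ribosomal protein genes. With a replicate block, stimulation gave 1 gene with an adjusted p under 0.05 in WT and 18 in cKO. The shares of all genes in the blocked fits were not counted, so a loss among these genes cannot be told from one over all genes.

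With single samples left out, the 4 h genotype counts were 0 to 1 higher, 0 to 4 lower and 0 adjusted, with medians from -0.08 to -0.03. At 0 h they were 0 higher, 0 to 2 lower and 0 adjusted (-0.20 to 0.02). In WT stimulation they were 0 to 1 higher, 6 to 16 lower and 0 to 2 adjusted (-0.49 to -0.27), in cKO 0 higher, 8 to 15 lower and 16 to 26 adjusted (-0.42 to -0.30), and the interaction had 0 (-0.10 to 0.11). The lowest WT stimulation count, 6 lower, came without WT replicate 1 at 0 h or at 4 h. The shares of all genes called higher or lower with single samples left out were not counted. Shares with an adjusted p under 0.05 were counted for stimulation only. The higher and lower counts with single samples left out are therefore no result about the ribosomal protein genes. Share differences ranged from -0.281 to -0.172 percentage points at 4 h, -0.775 to 0.120 at 0 h, -1.75 to -0.852 in WT and -1.37 to -1.03 in cKO. Among single named genes, 676 of the alternative values kept their side of the threshold, 36 lost a call and 17 gained one. The reads behind each value were not used here, and 2 samples a group limit the precision.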
